A study of Mus musculus with 6 samples.

Results

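The BCL2 family apoptosis regulators described here were 10 genes chosen by symbol, Bcl2, Bcl2l1, Mcl1, Bcl2a1b, Bax, Bak1, Bcl2l11, Bid, Bbc3 and Pmaip1, of 36083 genes in the deposited expression table. All 10 were found in the table, and all 10 passed the filter on low values, an average of 1 or more across the 6 libraries, as did 12155 genes in all. RNA-seq was run on lineage-negative blast crisis CML (bcCML) cells, a mouse model of the acute phase of chronic myeloid leukemia in which c-Kit+ Lin- Sca1+ (KLS) progenitors from B6 donor mice were given both BCR-ABL and NUP98-HOXA9. All groups carried both oncogenes, were sorted for cells positive for both, grew, per the labels, in NSG recipients, which lack lymphocytes but keep their own myeloid, erythroid and stromal cells, and were recovered from spleen by a Lin- sort. There were 2 groups of 3 libraries, WT, from wild-type donors, and Sdc1-/-, from donors whose germline Syndecan-1 gene was disrupted in its signal peptide sequence, in every cell and not in the leukemia alone. The study's general methods describe another recipient strain, CD45.1, for primary bcCML transplants, and the methods and the reporting summary give different age ranges for all mice of the study, with none for these animals in particular. Whether the 3 libraries of a group came from separate mice is not given in the sources used here, and the study's own legend for WT libraries of this kind calls them technical replicates. The SDs and p-values below therefore measure the spread between these libraries, which may be technical.

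The BCL2 family decides whether the outer membrane of mitochondria is opened and cytochrome c released, the step that commits a cell to intrinsic apoptosis. The effectors Bax and Bak1 form the pores, the anti-apoptotic proteins encoded by Bcl2, Bcl2l1 (BCL-XL), Mcl1 and the Bcl2a1 genes (A1) hold them in check, and the BH3-only proteins, among them Bcl2l11 (BIM), Bid, Bbc3 (PUMA) and Pmaip1 (NOXA), either bind the anti-apoptotic proteins or activate the effectors. BCR-ABL signaling is known to sustain Bcl2l1 and Mcl1 through STAT5. It is also known to hold down Bcl2l11, and many myeloid leukemias depend on Mcl1 or Bcl2.

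The family shares the BH3 region, the short helix by which its members bind each other, and the reference coding sequence around its core is shown for 8 members to place the 3 classes side by side. The core was searched in the coding sequence of 1 GENCODE M21 transcript per gene (GRCm38, the same assembly as mm10) as 6 codons that begin with leucine and end with glycine or alanine followed by aspartate. Each line runs 5′ to 3′ on the coding strand, and the 6 core codons are in capitals.
Bcl2: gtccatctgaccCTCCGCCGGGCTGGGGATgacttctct
Bcl2l1: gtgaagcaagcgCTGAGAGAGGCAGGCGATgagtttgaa
Mcl1: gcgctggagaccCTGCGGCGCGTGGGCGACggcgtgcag
Bax: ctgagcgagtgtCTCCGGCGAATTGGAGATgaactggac
Bak1: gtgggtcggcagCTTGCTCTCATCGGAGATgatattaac
Bcl2l11: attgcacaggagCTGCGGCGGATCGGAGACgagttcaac
Bid: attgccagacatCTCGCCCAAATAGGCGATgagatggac
Bbc3: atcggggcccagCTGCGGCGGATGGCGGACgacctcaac
The stretch lay in exon 1 of 2 of Bcl2 (chr1:106712575-106712613, minus strand), exon 2 of 3 of Bcl2l1 (chr2:152829697-152829735, minus) and exon 1 of 3 of Mcl1 (chr3:95659424-95659462, plus). It lay in exon 3 of 6 of Bax (chr7:45465997-45466035, minus) and exon 4 of 6 of Bak1 (chr17:27022531-27022569, minus). Among the BH3-only genes it lay in exon 3 of 4 of Bcl2l11 (chr2:128147138-128147176, plus), exon 4 of 6 of Bid (chr6:120897289-120897327, minus) and exon 3 of 4 of Bbc3 (chr7:16313761-16313799, plus). Each of these 8 genes held the pattern once, Pmaip1 held it 2 times, and Bcl2a1b held it 0 times, so these letters do not describe the BH3 region of A1.

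The labels were checked before the members were compared. The deposited values are TPM, a level per transcript length on a fixed library total, rescaled between libraries by the authors, and their sums were 1048875 to 1058263 in the WT libraries and 944973 to 951814 in the Sdc1-/- libraries. Sdc1 mRNA stood at 1.75, 1.21 and 1.51 in the WT libraries and at 3.85, 3.80 and 4.12 in the libraries labelled Sdc1-/-, so mRNA did not show the loss of the targeted gene. The study reported the deletion by PCR of genomic DNA and by immunofluorescence staining in bcCML cells. By its account the allele keeps mature protein from the cell surface. Sdc1-/- below means the libraries so labelled. The Y-linked genes Ddx3y, Eif2s3y, Kdm5d and Uty summed to 0.276 to 0.308 in WT and to 68.1 to 78.4 in Sdc1-/-, so the sex of the donor and the genotype cannot be told apart. The blast markers Ptprc (CD45), Cd34, Kit and Mpo were detected in every library, with log2 fold changes, Sdc1-/- minus WT, of -0.23, -0.24, 0.18 and -0.39, all called, and the blast list of 6 genes had a median of -0.24. With every library at the same sum Ptprc and Cd34 were no longer called (adjusted p = 0.16 and 0.068, limma), and Kit was not called without WT library 1 (0.055), WT library 3 (0.060) or Sdc1-/- library 2 (0.056). Of the antigens of the Lin sort, Cd3e, Cd4 and Cd8a were below the minimum mean, while Itgam (CD11b) ran from 23.3 to 24.0 in WT and from 7.14 to 7.69 in Sdc1-/-, and all 12 genes of a neutrophil list fell, with a summed level of 13171 to 14109 in WT and 4732 to 4869 in Sdc1-/-. Also lower were macrophage markers (6 of 7 tested), erythroid markers (7 of 8), megakaryocyte markers (4 of 5, with Pf4 higher and overlapping summed levels) and mast cell and basophil markers (4 of 5). These lists moved the same way as the members described next, and 31.3% of all genes were lower. A T cell list went the other way, with 1 of 2 tested genes higher and 0 lower. Its summed level was 7.68 to 9.60 in WT and 16.0 to 16.9 in Sdc1-/-. The 1 tested gene of a B cell list was not called. The part of these cell types in the members' differences was not tested. In such bulk libraries, fewer cells of a type and less RNA per cell cannot be told apart.

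In WT cells the effector Bax had by far the highest level of the 10 genes, 285.8 ± 12.1 (SD, n = 3), above 98.7% of all genes in the table by its mean. Mcl1 (66.5 ± 1.98) and Bak1 (63.5 ± 1.07) came next, and their ranges over the WT libraries overlapped, although Mcl1 was above Bak1 within each of the 3 libraries. Bid (47.9 ± 0.691) led the BH3-only members. Among the 10 it was followed by Bcl2l1 (30.3 ± 0.355), Pmaip1 (26.0 ± 1.75) and Bcl2 (18.6 ± 1.25), each with a range apart from its neighbor. Bbc3 (10.5 ± 0.554), Bcl2a1b (7.79 ± 0.291) and Bcl2l11 (2.10 ± 0.0139) stood lowest. The order of the means in Sdc1-/- was the same except that Bak1 (63.8 ± 1.35) stood above Mcl1 (57.7 ± 2.22), with ranges apart. Pmaip1 (17.2 ± 1.34) and Bcl2 (15.7 ± 0.979) had overlapping ranges there, with Pmaip1 above Bcl2 within each library. Bax remained first at 244.3 ± 10.01 and Bcl2l11 last at 1.98 ± 0.212. Bad, a BH3-only gene outside the 10, overlapped Bid in WT, at 48.4, 44.5 and 46.8 against 47.8, 48.6 and 47.3. It stood above Bid in every Sdc1-/- library, at 42.0, 38.0 and 38.3 against 34.6, 36.5 and 32.9. Order within a library does not depend on the scaling between libraries.

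Most of the family was lower in Sdc1-/- cells: 8 of the 10 members fell, across all 3 classes, 0 rose (0 also at an unadjusted p under 0.05), and Bak1 and Bcl2l11 were not called. A gene was called at an adjusted p under 0.05 (limma on log2(value + 1), Benjamini-Hochberg over all genes tested), and a log2 fold change below is Sdc1-/- minus WT on that scale, on which changes of low genes come out too small. In the same test 31.3% of all genes were lower, 29.3% were higher and 60.7% were called in either direction. The groups did not overlap for 8 of the 10 members, against 66.7% of all genes. The median log2 fold change of the members was -0.25, beside -0.0097 over all genes tested. When every library was instead set to a sum of 1000000, the median of all genes moved to 0.12, the lower share of all calls went from 51.7% to 30.9% (43.5% of genes higher, 19.5% lower), and of the members 4 were lower (Bcl2l1, Bcl2a1b, Bid and Pmaip1) and Bak1 alone was higher. Those 4 genes were lower under every alternative run, whereas Bcl2, Mcl1, Bax and Bbc3 lost their calls with equal library sums. After quantile normalization these stayed lower and called (adjusted p = 0.012, 0.023, 0.045 and 0.015, limma). Bcl2 and Bbc3 also lost their calls without a minimum mean, and each kept its call in only 2 of the 6 fits that left out 1 library.

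**Figure D1:**
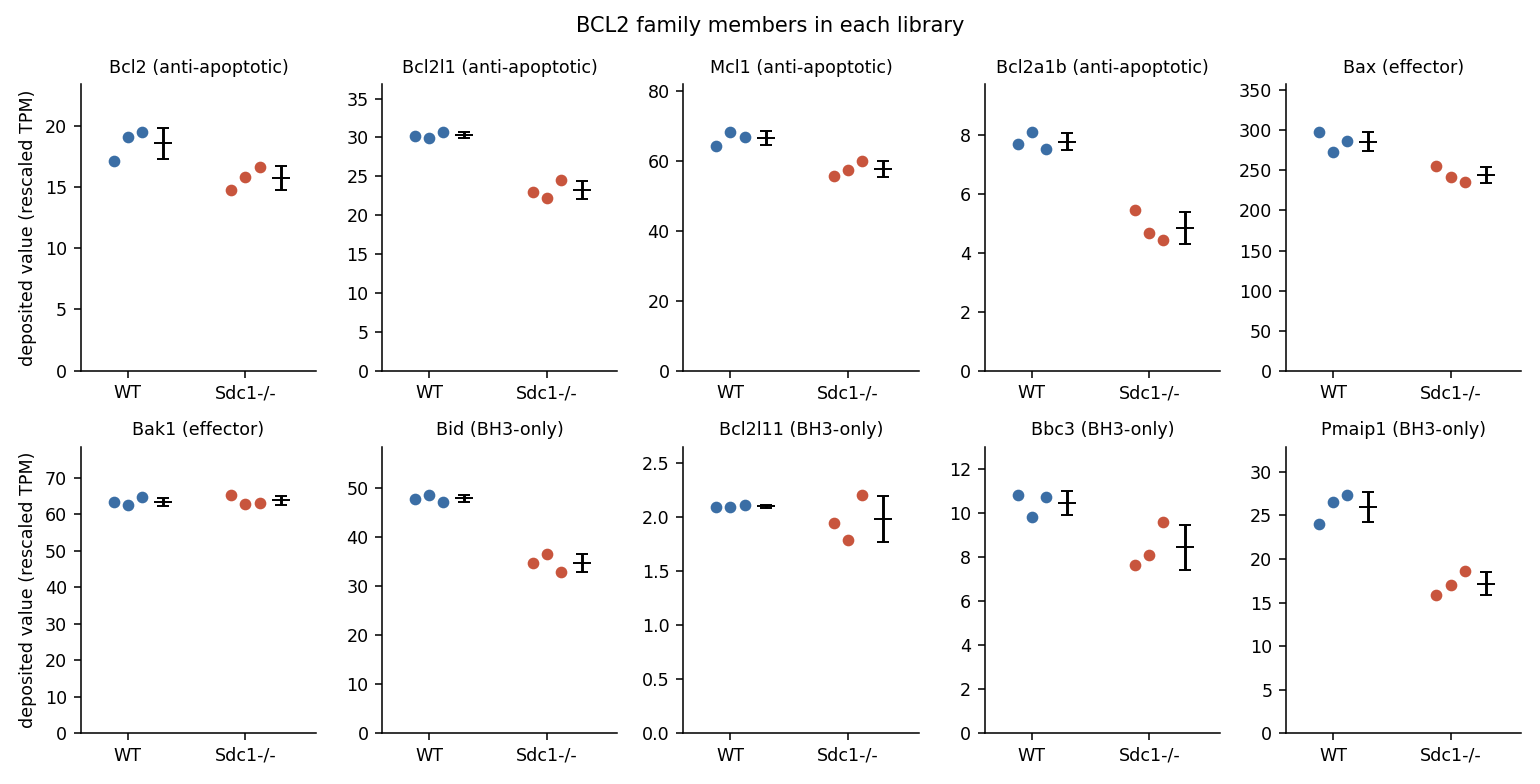
Deposited values (rescaled TPM, axis from 0) of the 10 members in each library, points for the 3 WT and 3 Sdc1-/- libraries, with the mean and SD as a bar beside them. All Sdc1-/- points lie below all WT points for 8 genes, though with every library set to the same sum only 4 of these were called, and the groups overlap for Bak1 and Bcl2l11.

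Among the anti-apoptotic genes, Bcl2l1 and Bcl2a1b had the larger falls and Bcl2 and Mcl1 the smaller ones. Bcl2l1 (chr2:152780668-152831728), which encodes BCL-XL and its short pro-apoptotic splice form, was measured at 30.2, 30.0 and 30.7 in WT and at 23.0, 22.3 and 24.5 in Sdc1-/-. The groups did not overlap, and the WT values lay within 1 unit of each other. Its level was 23.2% lower in Sdc1-/- by the means, with a log2 fold change of -0.37 (95% interval -0.47 to -0.27) and an adjusted p of 0.00033 (limma, Benjamini-Hochberg). With every library set to the same sum the difference was -0.22 (adjusted p = 0.0038 in limma).

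Mcl1 (chr3:95658788-95663176), a short-lived guard of both effectors on which myeloid progenitors depend, stood at 64.4, 68.3 and 67.0 in WT and at 55.6, 57.4 and 60.0 in Sdc1-/-. Every Sdc1-/- value was below every WT value, with the highest of the former and the lowest of the latter 60.0 and 64.4. The log2 fold change was -0.20 (95% interval -0.30 to -0.11, adjusted p = 0.0040, limma). The call was lost with equal library sums, where the difference was -0.057 (interval -0.16 to 0.044, adjusted p = 0.28).

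Bcl2 (chr1:106538178-106714274), the founding anti-apoptotic gene, was measured at 17.1, 19.1 and 19.5 in WT and at 14.7, 15.8 and 16.7 in Sdc1-/-. The groups were separate but close, with WT library 1 just above Sdc1-/- library 3. The log2 fold change was -0.22 (95% interval -0.38 to -0.071), with an adjusted p of 0.020 in limma. It was not called with equal library sums (-0.084, interval -0.24 to 0.077, adjusted p = 0.32), nor without WT library 2 (adjusted p = 0.060), WT library 3 (0.067), Sdc1-/- library 1 (0.059) or Sdc1-/- library 2 (0.053).

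Bcl2a1b (chr9:89199209-89207827), 1 of several nearly identical mouse genes for A1, an NF-kappaB target known from granulocytes, mast cells and activated lymphocytes, had values of 7.71, 8.11 and 7.54 in WT. Its Sdc1-/- values were 5.47, 4.67 and 4.43, so the groups were well apart. The level was 37.6% lower by the means, with a log2 fold change of -0.59 (95% interval -0.77 to -0.41, adjusted p = 0.00050, limma). Reads of this gene are shared with its copies, which are taken up after the other members.

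The effectors differed from each other: Bax fell and Bak1 was not called. Bax (chr7:45461697-45466898), a soluble protein that moves to mitochondria when activated and a p53 target gene, was measured at 297.7, 273.5 and 286.3 in WT and at 255.4, 241.6 and 236.0 in Sdc1-/-. The groups did not overlap. Its log2 fold change was -0.23 (95% interval -0.33 to -0.12, adjusted p = 0.0038, limma), and with equal library sums it was -0.077 (interval -0.18 to 0.021, adjusted p = 0.14), no longer called.

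Bak1 (chr17:27019810-27029009), which encodes the effector resident in the outer mitochondrial membrane, stood at 63.3, 62.5 and 64.6 in WT and at 65.4, 62.9 and 63.2 in Sdc1-/-. The values of both groups overlapped throughout. The log2 fold change was 0.0076, with a 95% interval of -0.067 to 0.082 (adjusted p = 0.85, limma), and its sign turned to -0.0033 without WT library 2 and to -0.0096 without Sdc1-/- library 1. With equal library sums it was called higher, at 0.15 (interval 0.080 to 0.23, adjusted p = 0.0041), while the median of all genes stood at 0.12. Of the 31-base words in Bak1 transcripts, 20.4% also occur in Ggnbp1, a gene on the opposite strand whose values ran from 1.36 to 2.48 over the 6 libraries.

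Of the BH3-only genes, Pmaip1, Bid and Bbc3 fell and Bcl2l11 was not called. Pmaip1 encodes NOXA, a p53 target that binds MCL1 and A1 and promotes the breakdown of MCL1. It was measured at 24.0, 26.5 and 27.4 in WT and at 15.9, 17.0 and 18.6 in Sdc1-/-. The groups did not overlap, and the level was 34.0% lower by the means. Its log2 fold change was -0.57 (95% interval -0.74 to -0.41, adjusted p = 0.00041, limma), and -0.43 with equal library sums (adjusted p = 0.0019).

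Bid (chr6:120891930-120916853), the link from death receptors to mitochondria, which caspase-8 cleaves into its active form, stood at 47.8, 48.6 and 47.3 in WT and at 34.6, 36.5 and 32.9 in Sdc1-/-. It had the smallest adjusted p of the 10 members, 0.00013 (limma), with a log2 fold change of -0.46 (95% interval -0.56 to -0.35). The difference was -0.31 with equal library sums (adjusted p = 0.00061). Of the 31-base words of Bid, 16.9% occur in Bcl2l13 on the opposite strand, another family gene, which also fell (log2 fold change -0.42).

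Bbc3 (chr7:16308393-16318205), which encodes PUMA, a p53 and FOXO3 target that binds all anti-apoptotic members, was measured at 10.8, 9.83 and 10.7 in WT and at 7.65, 8.10 and 9.61 in Sdc1-/-. The groups were separate, with Sdc1-/- library 3 close to WT library 2. The log2 fold change was -0.28 (95% interval -0.48 to -0.084), with an adjusted p of 0.022 in limma. The call was lost with equal library sums (-0.15, interval -0.35 to 0.055, adjusted p = 0.17), and without WT library 1 (adjusted p = 0.067), WT library 3 (0.065), Sdc1-/- library 1 (0.063) or Sdc1-/- library 2 (0.072).

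Bcl2l11 (chr2:128126038-128162547), which encodes BIM, the activator BH3-only protein that BCR-ABL signaling is known to hold down, was the lowest member, at 2.09, 2.09 and 2.11 in WT and at 1.95, 1.79 and 2.21 in Sdc1-/-. The Sdc1-/- values spread around the WT values. The log2 fold change was -0.059, with a 95% interval of -0.24 to 0.12 (adjusted p = 0.52, limma), and its sign turned to 0.041 with equal library sums (adjusted p = 0.67). Differences anywhere inside the 95% interval remain compatible with these values.

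Because the median of all genes moves with the scaling, each member was also read against it. Relative to that median, the log2 fold changes of the called members were nearly the same under both scalings, for example -0.21 and -0.21 for Bcl2, -0.36 and -0.35 for Bcl2l1, -0.19 and -0.18 for Mcl1, -0.22 and -0.20 for Bax, and -0.56 and -0.55 for Pmaip1, with the deposited scaling first. Bak1 stood 0.017 above the median with the deposited scaling and 0.031 above it with equal sums. Setting equal sums multiplies all values of a library by the same constant, so members and median shift together. The agreement between the scalings is therefore arithmetic, apart from the 1 added before the logarithm, and is no test of the falls.

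**Figure D2:**
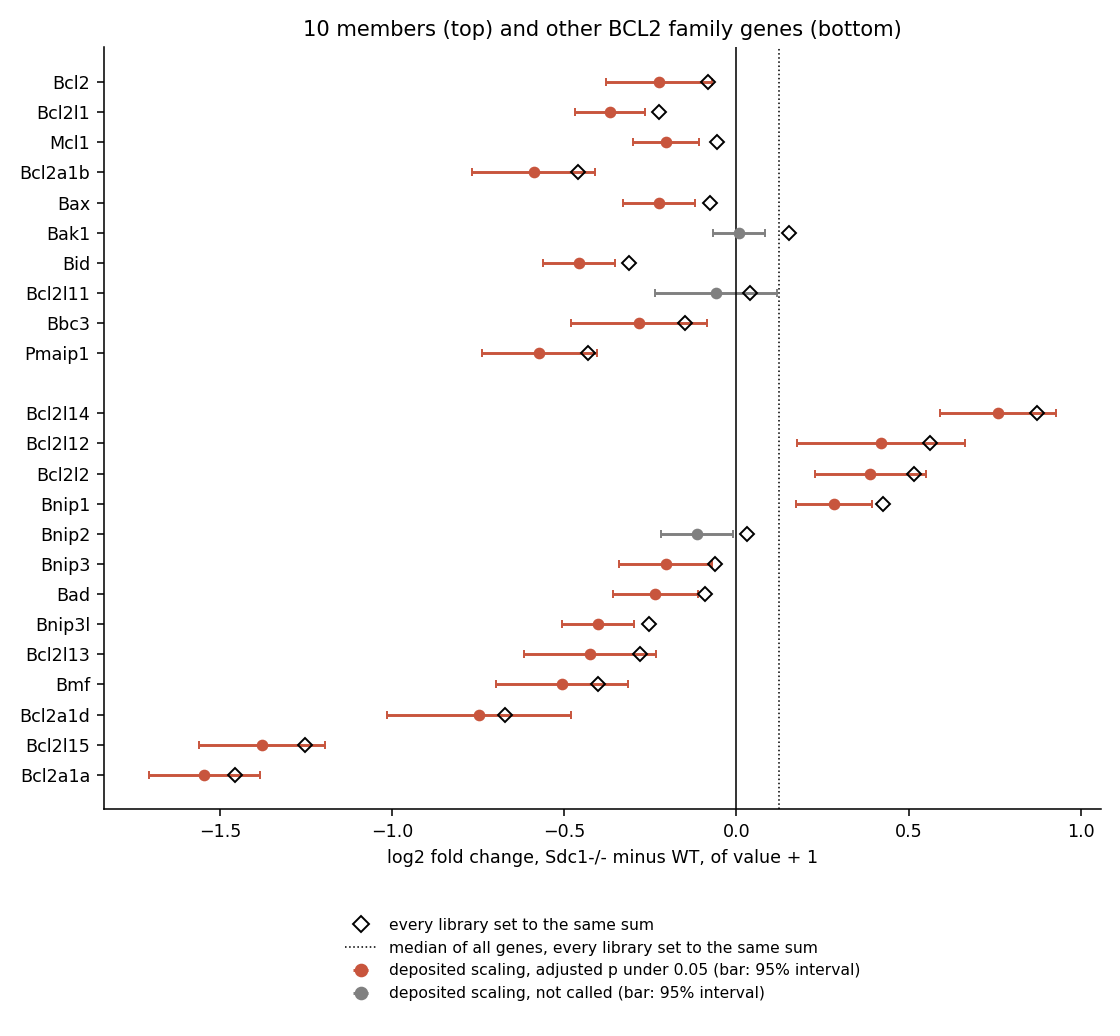
Log2 fold changes (Sdc1-/- minus WT, of value + 1) of the 10 members and the 13 other tested family genes, with circles and 95% intervals for the deposited scaling, colored where called, and open diamonds for equal library sums. The diamonds are shifted to the right with the median of all genes (dotted line, 0.12), the signs of Bcl2l11 and Bnip2 turn, and Bcl2a1a and Bcl2l15 lie farthest to the left.

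Ratios between members within a library do not depend on the scaling, so they show which members moved apart, as a description without a test. The ratio of Mcl1 to Bak1 was 1.02, 1.09 and 1.04 in WT and 0.850, 0.912 and 0.949 in Sdc1-/-, and that of Bcl2l1 to Bak1 was 0.477, 0.480 and 0.475 against 0.352, 0.354 and 0.388. Both guards of Bak1 were thus lower relative to it in every Sdc1-/- library. Bax to Bak1 was 4.70, 4.37 and 4.43 in WT and 3.91, 3.84 and 3.73 in Sdc1-/-, again without overlap. By contrast, Bcl2 to Bax was 0.0576, 0.0697 and 0.0680 in WT and 0.0576, 0.0655 and 0.0707 in Sdc1-/-, with overlapping groups and means of 0.0651 ± 0.00659 and 0.0646 ± 0.00656 (SD, n = 3). NOXA's mRNA fell more than that of its partner: Pmaip1 to Mcl1 was 0.373, 0.389 and 0.409 in WT and 0.286, 0.296 and 0.310 in Sdc1-/-.

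**Figure D3:**
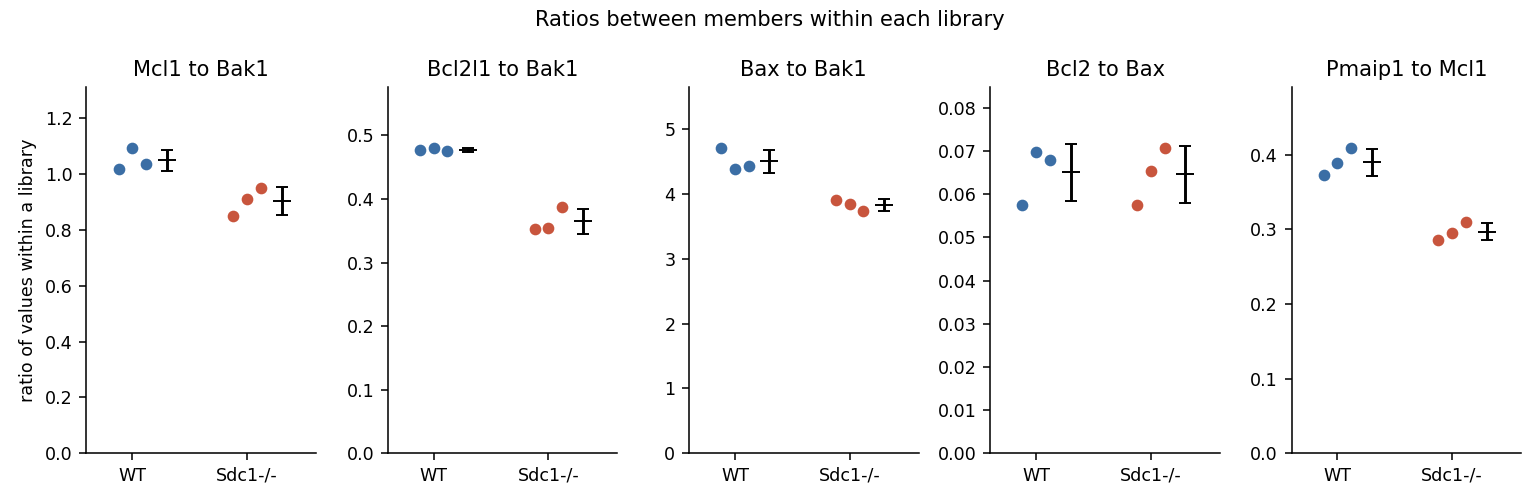
Ratios of the values of 2 members within each library (no unit, axes from 0), with 3 points per group and the mean and SD beside them. Mcl1 to Bak1, Bcl2l1 to Bak1, Bax to Bak1 and Pmaip1 to Mcl1 are lower in every Sdc1-/- library than in every WT library, while Bcl2 to Bax overlaps between groups.

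The makeup of the anti-apoptotic pool shifted toward Mcl1 and Bcl2l2 and away from A1. Over Bcl2, Bcl2l1, Mcl1, Bcl2l2, Bcl2a1a, Bcl2a1b and Bcl2a1d, the summed level was 130.0 to 135.8 in WT and 107.5 to 113.7 in Sdc1-/-. Mcl1 made up 49.7% ± 0.492 of that sum in WT and 52.6% ± 0.743 in Sdc1-/- (SD, n = 3), without overlap. The share of Bcl2l1 was 22.6% ± 0.577 against 21.2% ± 0.501, also without overlap, and that of Bcl2 13.9% ± 0.609 against 14.3% ± 0.559, with overlap. The Bcl2a1 genes went from 10.1% ± 0.297 to 5.64% ± 0.578, and Bcl2l2 from 3.75% ± 0.0856 to 6.29% ± 0.618. The ratio of this sum to the sum of Bax and Bak1 overlapped between groups, at 0.360 to 0.404 in WT and 0.335 to 0.380 in Sdc1-/-. The sum of 6 BH3-only genes (Bid, Bad, Pmaip1, Bbc3, Bcl2l11 and Bmf) stood at 0.992 to 1.05 times the anti-apoptotic sum in WT and at 0.911 to 0.966 times in Sdc1-/-.

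All the Bcl2a1 genes that could be tested fell, and they fell by different amounts. Mouse A1 is encoded by near copies on chromosome 9, and the coding sequences of Bcl2a1a, Bcl2a1b and Bcl2a1d, 516 bases each, differ at 12 positions in all. Their first 90 coding bases, in exon 1, are shown because 6 of those 12 positions lie there, in capitals.
Bcl2a1a: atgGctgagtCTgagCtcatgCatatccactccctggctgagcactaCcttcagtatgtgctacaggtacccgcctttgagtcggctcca
Bcl2a1b: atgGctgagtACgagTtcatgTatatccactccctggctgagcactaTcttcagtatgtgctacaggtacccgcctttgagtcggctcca
Bcl2a1d: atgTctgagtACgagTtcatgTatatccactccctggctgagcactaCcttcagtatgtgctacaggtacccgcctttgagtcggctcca
These stretches (GRCm38) are chr9:88957051-88957140 on the plus strand for Bcl2a1a, chr9:89199360-89199449 on the plus strand for Bcl2a1b and chr9:88731630-88731719 on the minus strand for Bcl2a1d. Bcl2a1b and Bcl2a1d differ at 6 of the 516 bases (98.8% identity), Bcl2a1a and Bcl2a1d at 7 (98.6%) and Bcl2a1a and Bcl2a1b at 11 (97.9%). Over whole transcripts, 88.8% of the 31-base words of Bcl2a1b, 79.6% of those of Bcl2a1a and 89.1% of those of Bcl2a1d also occur in another gene, so how kallisto divided the reads among them is uncertain and each gene's value is less sure than their sum.

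Bcl2a1a was listed at 4.14, 3.95 and 3.76 in WT and at 0.660, 0.744 and 0.686 in Sdc1-/-. The groups were far apart, with WT 5.67 times Sdc1-/- by the means and a log2 fold change of -1.54 (95% interval -1.71 to -1.38, adjusted p = 4.4e-06, limma). Bcl2a1d was listed at 1.64, 1.38 and 2.06 against 0.488, 0.658 and 0.650, a log2 fold change of -0.75 (adjusted p = 0.0011). Bcl2a1c was below the minimum mean, at 0 to 0.186. Summed over the Bcl2a1 genes, the level was 13.6, 13.6 and 13.4 in WT and 6.69, 6.08 and 5.77 in Sdc1-/-, and fitted as 1 gene they gave a log2 fold change of -1.02 (adjusted p = 1.1e-05, limma). Within the sum, Bcl2a1b went from 57.6% ± 1.68 in WT to 78.5% ± 2.77 in Sdc1-/- and Bcl2a1a from 29.2% ± 1.22 to 11.3% ± 1.29, whereas Bcl2a1d overlapped at 12.6% ± 2.67 and 9.80% ± 2.19 (SD, n = 3). Gm29094, an annotated gene that overlaps Bcl2a1b on the same strand and shares its sequence, was listed at 2.60 in WT library 2, at 1.53 in Sdc1-/- library 3 and at 0 in the other libraries.

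**Figure D4:**
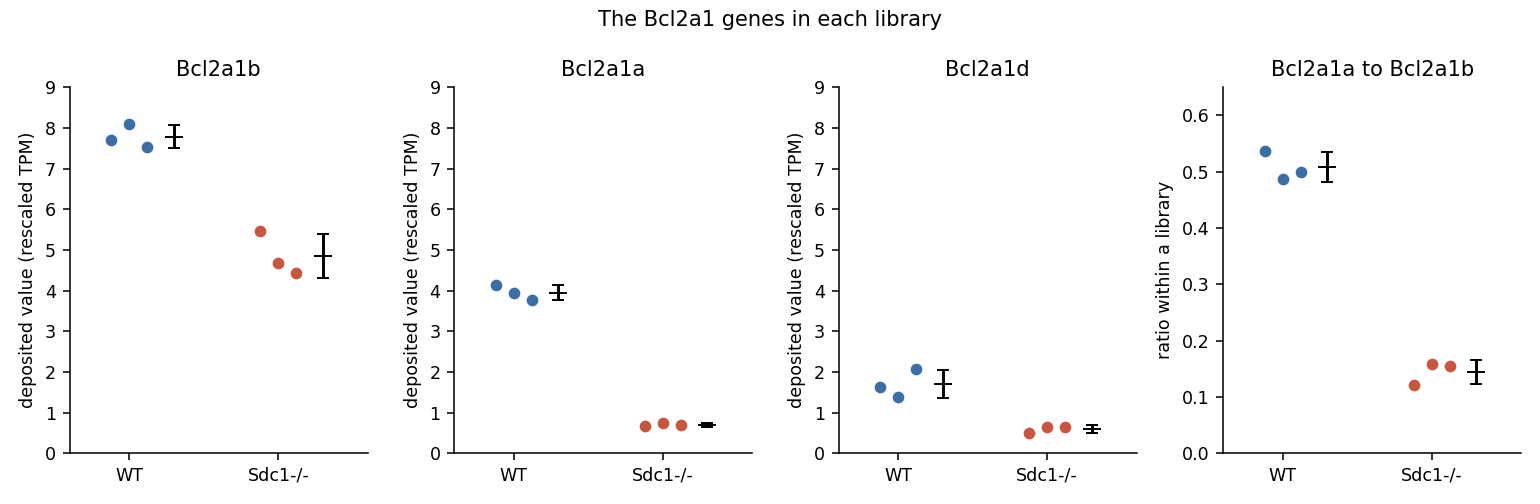
Deposited values (rescaled TPM, axes from 0 on a common scale) of Bcl2a1b, Bcl2a1a and Bcl2a1d in each library, and at the right the ratio of Bcl2a1a to Bcl2a1b within a library, with mean and SD. Sdc1-/- points lie below WT points in every panel, and the ratio goes from 0.508 ± 0.0266 to 0.145 ± 0.0211.

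A DNA word bound by the myeloid factor PU.1 (GAGGAAGT, searched on both strands from 250 bases before to 50 after the gene start, RefSeq on GRCm38.p6) was looked for in the members and the Bcl2a1 genes. Spi1, the gene for PU.1, was lower in Sdc1-/-, as were the tested A1 genes and 31.3% of all genes. A link between them was not tested. Windows were held for 12 of the 13 members and Bcl2a1 genes, without Pmaip1. The word was found for Bcl2a1a, Bcl2a1b, Bcl2a1c, Bcl2a1d and Bak1, and in 3.20% of all 32851 windows. The stretches around it are shown with the word in capitals for Bcl2a1a, Bcl2a1b and Bcl2a1d and for Bak1, the only match outside the Bcl2a1 genes. The A1 copies carry it in nearly the same setting, so their matches are not independent.
Bcl2a1a: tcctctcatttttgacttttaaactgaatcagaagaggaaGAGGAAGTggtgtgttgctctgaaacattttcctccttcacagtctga
Bcl2a1b: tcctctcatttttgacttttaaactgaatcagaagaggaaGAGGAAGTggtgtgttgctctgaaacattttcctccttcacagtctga
Bcl2a1d: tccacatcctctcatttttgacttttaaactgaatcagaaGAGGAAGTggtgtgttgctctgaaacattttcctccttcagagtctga
Bak1: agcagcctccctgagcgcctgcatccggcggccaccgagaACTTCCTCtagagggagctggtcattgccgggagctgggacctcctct
They are chr9:88956776-88956863 (plus strand), chr9:89199085-89199172 (plus), chr9:88731907-88731994 (minus) and chr17:27028602-27028689 (minus, the word on the opposite strand). The word began 104 bases before the RefSeq start of Bcl2a1a and of Bcl2a1d, 148 before that of Bcl2a1b and 22 before that of Bak1. GENCODE M21, from which the gene spans given above were taken, places the starts elsewhere, so that the word lay 84 bases before Bcl2a1a and Bcl2a1b, 40 before Bcl2a1d and 360 bases inside Bak1. Other words searched the same way were TGTTTAC, a FOXO word, found for Bbc3 and Bcl2l11 and in 3.65% of windows, and TTCNNNGAA, a STAT word, found in 8.30% of windows and for none of the 12 genes. A p53 half-site was found for Bax (8.36% of windows) and an NF-kappaB site for Bbc3 and Bcl2l1 (8.46%). A match describes these letters and says nothing of binding.

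The other family genes moved in both directions. Of 18 further genes with BCL2 homology or a BNIP name, 13 were tested, 4 rose and 8 fell, beside 29.3% and 31.3% of all genes. Bcl2l2, which encodes the anti-apoptotic BCL-W, rose: it stood at 4.79, 5.04 and 5.22 in WT and at 7.52, 6.40 and 6.74 in Sdc1-/-, without overlap (log2 fold change 0.39, 95% interval 0.23 to 0.55, adjusted p = 0.0022, limma). Among the genes of the anti-apoptotic sum given above, Bcl2l2 was the only one to rise. Bcl2l14 (0.76), Bcl2l12 (0.42) and Bnip1, a SNARE of the endoplasmic reticulum (0.28), rose as well. These 4 genes were also called higher with equal library sums.

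Among the further BH3-only genes, Bmf, which senses loss of attachment and cytoskeletal stress, fell: it stood at 2.77, 3.11 and 3.27 in WT and at 1.73, 1.76 and 2.06 in Sdc1-/-, without overlap, a log2 fold change of -0.51 (adjusted p = 0.0014, limma). Bad, whose protein is switched off by growth factor signaling, was abundant, at 48.4, 44.5 and 46.8 in WT and 42.0, 38.0 and 38.3 in Sdc1-/- (log2 fold change -0.24, adjusted p = 0.0064, limma), but its call was lost with equal library sums (-0.090, adjusted p = 0.15). The mitophagy receptors Bnip3l (-0.40) and Bnip3 (-0.21) fell too, Bnip3l being high at 178.3 to 189.3 in WT and 132.8 to 145.7 in Sdc1-/-. The Bnip3 call was lost with equal library sums (adjusted p = 0.36) and without WT library 1 (0.056), WT library 2 (0.053) or Sdc1-/- library 2 (0.061). Bcl2l15 had the largest fall outside the A1 genes, from 9.81, 11.1 and 9.15 to 3.26, 3.03 and 3.42 (-1.38, adjusted p = 1.1e-05, limma). Bnip2 was not called (-0.12, 95% interval -0.22 to -0.0096, and 0.031 with equal library sums), and Bcl2a1c, Bok, Bik, Hrk and Bcl2l10 were below the minimum mean, with Bcl2l10 listed at 0 in every library.

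Several members are p53 targets, and most genes of the p53 list, though not all, moved opposite to Trp53. Trp53 itself rose, from 139.9, 125.7 and 139.4 in WT to 178.6, 172.9 and 168.2 in Sdc1-/- (log2 fold change 0.36, 95% interval 0.24 to 0.48, adjusted p = 0.00071, limma). Mdm4, which encodes an inhibitor of p53, rose more, from 16.2, 15.6 and 16.0 to 32.0, 34.2 and 32.7 (1.00, adjusted p = 3.1e-06). Of the 12 genes on the list, 8 fell, 2 rose and Aen and Eda2r were not called, beside 31.3% of all genes lower and 29.3% higher. The largest falls were those of Trp53inp1, a p53-induced stress gene (-1.24), the cell cycle inhibitor Cdkn1a (-0.48) and the RNA-binding Zmat3 (-0.46). The list's median log2 fold change was -0.33, beside -0.0097 for all genes. With equal library sums 8 genes were also lower and 3 higher, beside 19.5% and 43.5% of all genes. Aen was among the higher ones there (0.15, adjusted p = 0.018, limma). Relative to Trp53 in the same library, Bbc3 was 0.0774, 0.0782 and 0.0770 in WT and 0.0428, 0.0468 and 0.0571 in Sdc1-/-, and Pmaip1 0.172, 0.211 and 0.196 against 0.0891, 0.0981 and 0.110, both without overlap. Every Sdc1-/- value of Trp53 was above every WT value, and every one of Bbc3 and Pmaip1 below, so these ratios could only separate. They describe mRNA levels and not the activity of p53.

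Downstream of the mitochondria, the 13 genes of the apoptosome and caspase list held 4 higher, 4 lower and 5 not called, close to the shares of all genes (29.3% higher, 31.3% lower). Apaf1, the scaffold of the apoptosome, rose from 14.5, 13.7 and 13.5 to 17.6, 20.5 and 21.5 (log2 fold change 0.49, adjusted p = 0.0012, limma). Htra2 (0.44) and Aifm1 (0.42), released from mitochondria with cytochrome c, rose as well. The nuclease gene Dffb (-0.33) and the initiator Casp9 (-0.27) fell, the latter not with equal library sums (adjusted p = 0.085). That scaling gave 7 higher and 2 lower in this list, beside 43.5% and 19.5% of all genes.

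The lists upstream of the members also held both directions. Of 8 death receptor genes, 3 rose and 4 fell, beside 29.3% and 31.3% of all genes. Casp8, whose product cleaves BID, rose from 39.5, 41.8 and 37.9 to 55.3, 53.4 and 50.1 (log2 fold change 0.41, adjusted p = 0.00049, limma) while Bid fell, and the receptor Fas fell from 6.11, 6.63 and 7.23 to 3.38, 3.79 and 4.04 (-0.69, adjusted p = 0.00030). Tnfrsf10b (0.26) rose, and Tradd (0.19) did so with a call that 7 alternatives lost, among them the fits without WT library 2 or 3 or any Sdc1-/- library (adjusted p from 0.057 to 0.11). Tnfrsf1a (-0.36) and Cflar (-0.25), the caspase-8 inhibitor, fell, but not with equal library sums (adjusted p = 0.057 and 0.098, limma). Under that scaling the list had 4 higher and 2 lower, beside 43.5% and 19.5% of all genes.

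Of 12 tested transcription factors known to act on BCL2 family genes, 4 rose, 4 fell and 4 were not called, close to the 29.3% and 31.3% of all genes. Spi1 had the largest change, from 110.9, 113.5 and 108.8 to 65.3, 58.9 and 54.0 (log2 fold change -0.90, adjusted p = 3.8e-05, limma). Ddit3 (CHOP, -0.46) and Stat5b (-0.20) fell, Stat5b not with equal library sums (adjusted p = 0.16), while Myb (0.37), Stat5a (0.22) and E2f1 (0.18) rose. E2f1 was not called without Sdc1-/- library 2 (adjusted p = 0.062). With equal library sums 6 of these genes were higher and 2 lower, beside 43.5% and 19.5% of all genes.

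MCL1 protein is set largely by its breakdown, so genes for its ligases and deubiquitinases were listed with it. Of 5 tested, Huwe1, the ligase known as MULE, rose from 25.5, 23.2 and 23.5 to 34.8, 33.9 and 34.4 (log2 fold change 0.50, adjusted p = 8.7e-05, limma), Fbxw7 rose (0.32), Fbxo4 fell (-0.51) and Usp9x and Btrc were not called. Of all genes, 29.3% were higher and 31.3% lower. Protein was not measured in these libraries. Of 6 genes for outer membrane partners, Mtch2, a receptor for truncated BID, rose (0.41), Vdac2, which holds BAK at the mitochondrion, fell from 365.4, 362.2 and 338.2 to 285.0, 300.6 and 289.1 (-0.28, adjusted p = 0.00079, limma), and Tmbim6 (-0.27) fell. With equal library sums 4 of the 6 were higher and Vdac2 and Tmbim6 were still lower, beside 43.5% and 19.5% of all genes.

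Of 7 inhibitor of apoptosis genes, 2 rose and 2 fell, close to the 29.3% and 31.3% of all genes. Birc5 (survivin), a gene of dividing cells, rose from 115.0, 118.1 and 115.3 to 141.2, 145.1 and 142.7 (log2 fold change 0.30, adjusted p = 0.00012, limma), and Birc6 rose (0.47). Birc3, an NF-kappaB target like the A1 genes, fell from 22.1, 23.6 and 21.3 to 11.5, 14.3 and 15.1 (-0.68, adjusted p = 0.00080), and Naip2 fell (-0.57). Xiap was not called (-0.050, 95% interval -0.24 to 0.14, and above 0 with equal library sums), nor were Birc2 and Naip5.

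**Figure D5:**
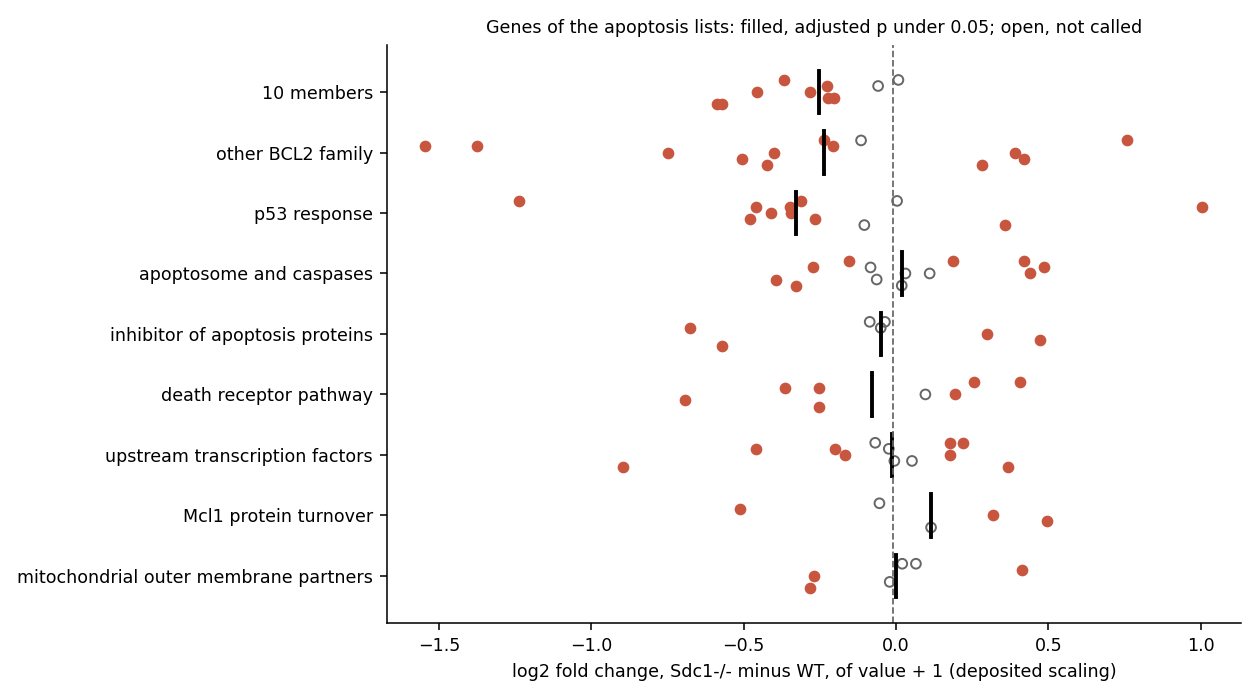
Log2 fold changes (Sdc1-/- minus WT, of value + 1, deposited scaling) of the tested genes of 9 lists, filled where called, with the median of each list as a thick line and the median of all genes (-0.0097) dashed. The medians of the members (-0.25), the other family genes (-0.24) and the p53 list (-0.33) lie left of the line and that of Mcl1 protein turnover (0.11) lies to its right, and with equal library sums all medians move up with that of all genes, to 0.12.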

How the data were processed

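RNA-seq libraries of Lin- bcCML cells, 3 WT and 3 Sdc1-/-, were grouped by their labels. Per the labels, stranded mRNA libraries were sequenced as single reads. The authors quantified transcripts with kallisto (version not given in the sources used here) against mm10, summed them to genes and tested the groups with sleuth 0.30.0. The authors deposited a signal per gene and library, TPM rescaled between libraries. A second deposited table holds results of the authors' own test (p-values, q-values, effect sizes and variances) and was not used. Read depth is unknown, so values allow no interval from counting error. A strand setting for kallisto is not given in the sources used here, so overlapping genes may share reads.

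The members and gene lists were chosen with earlier results of these data known. Genes averaging 1 or more were fitted by group alone with limma 3.58.1 (R 4.3.3), on log2(value + 1) with a variance trend, and p-values were adjusted by Benjamini-Hochberg at 0.05. The design assumed plain TPM, and its test was not changed for the rescaled values. The script was tested on simulated data. Alternatives changed the pseudocount (0.1 or 0.5), the minimum mean (none or 5), the scaling (sums of 1000000 or quantiles), the variance trend, the replicate block, the libraries used and, for Bcl2a1b, the summing of its copies. With 3 libraries a group an exact permutation test cannot go below p = 0.1, so none is given. Sequences and shared 31-base words came from GENCODE M21 and RefSeq, both on GRCm38 (Biopython 1.88, Python 3.11.15, pandas 2.3.3, matplotlib 3.10.9). All members, every other family gene, and up to 3 called genes in each direction of each other list were named, and some genes of these lists are not reported here.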

Additional observations from a re-analysis of the deposited data

How the results depend on the processing

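Of the 10 members, Bcl2l1, Bcl2a1b, Bid and Pmaip1 were lower and called under all alternatives run. With all library sums at 1000000, 4 members were lower and 1 was higher, against 8 and 0, and the log2 fold changes were -0.084 for Bcl2, -0.057 for Mcl1, -0.077 for Bax, -0.15 for Bbc3, 0.15 for Bak1 (called) and 0.041 for Bcl2l11 (sign turned). That scaling also moved the counts for caspases to 7 higher and 2 lower, for death receptor genes to 2 lower, for transcription factors to 2 lower and for outer membrane partners to 4 higher (2 higher after quantile normalization). Of all genes, 43.5% were higher and 19.5% lower with equal sums. Quantile normalization kept 8 members lower and 0 higher. Without a minimum mean, Bcl2 (-0.22, adjusted p = 0.0505) and Bbc3 (-0.28, adjusted p = 0.061) lost their calls, since 24714 genes were then tested. A minimum mean of 5 left Bcl2l11 untested and gave 5 lower in the other family and 1 higher in Mcl1 protein turnover. Leaving out 1 library at a time gave 6 to 8 members lower and 0 higher, with log2 fold changes of -0.28 to -0.18 for Bcl2, -0.37 to -0.22 for Bbc3 and -0.0096 to 0.020 for Bak1, whose sign turned without WT library 2 (-0.0033) or Sdc1-/- library 1 (-0.0096). Otherwise the cause of these changes was not tested. Deviations of same-numbered libraries from the group means correlated at 0.15, -0.0083 and 0.018, and those of unlike-numbered libraries at -0.16 to 0.14. With 3 libraries a group, such correlations cannot decide whether libraries were paired. The fit with the replicate number as a block called 3653 genes higher and 3971 lower, beside 3564 and 3810, and kept 8 members lower and 0 higher. Depth is unknown, and 31-base words shared between the Bcl2a1 genes limit the values of each.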
